A study of Oryza sativa with 12 samples.

Results

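*BADH2* is the gene behind the scent of Basmati rice, and its transcript was followed here across 12 expression arrays of rice seedlings. It encodes a betaine aldehyde dehydrogenase, an enzyme that oxidises aminoaldehydes made during the breakdown of polyamines. Fragrant rices carry alleles of this gene that do not give a working enzyme, and the aminoaldehyde that builds up feeds the synthesis of the acetyl-pyrroline compound responsible for the aroma. The same family of enzymes makes glycine betaine, a protectant against water loss, in plants that accumulate it, which rice does not do to any great extent. *BADH2* was found by its synonym in the reference gene table (gene LOC4345606, on chromosome 8) and joined to the arrays by its gene number, which gave 1 probe set. The tables used here do not place its probes within the gene. It is 1 of the 15140 genes that could be tied to a probe set read for them alone. The gene was chosen from its values in these arrays, so its levels and differences are a description and carry no p-value.

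The seedlings were of the cultivar Pusa Basmati 1, a fragrant rice, which all 4 groups share, and were 3 weeks old. H49, a single transgenic line made to over-express the HD-ZIP I factor gene *OsHOX24* from a construct the study writes as a ubiquitin promoter fusion, and wild type (WT) were each dried for 3 h on tissue paper (desiccation stress, DS, giving the groups H49_DS and WT_DS) or kept in water for 3 h (H49_CT and WT_CT), with 3 arrays per group. The labels name the transgenic plants by the gene alone, so the line is known from the paper, and they call the treatment drought. The methods describe the 3 arrays of a group as independent biological replicates.

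Values are RMA log2 values, in which a difference of 1 is a 2-fold difference. The arrays had medians of 4.32 to 4.46 over their probe sets, and arrays of one group correlated across genes at 0.949 to 0.969. *OsHOX24* (*HOX24* in the gene table), the gene carried by the construct, was at 10.17, 9.44 and 9.96 in H49_DS, against 4.56, 3.57 and 3.23 in H49_CT, and at 9.38, 10.29 and 10.06 in WT_DS, against 5.61, 4.11 and 2.83 in WT_CT. For this gene H49 and WT thus overlapped under both treatments, and the tables used here do not say whether its probe set reads the transcript of the construct. The paper reports by real-time PCR that the transgene was raised over WT in all its selected lines, H49 among them. The arrays of replicate 1 stood apart. Over all genes, deviations from the group means correlated at 0.10 to 0.39 in the 8 pairs of an H49 and a WT array that share replicate number 2 or 3, and at -0.20 to -0.065 in the 4 such pairs of replicate 1. For *BADH2*, replicate 1 of H49 was at the level of replicates 2 and 3 of WT, and replicate 1 of WT at the level of replicates 2 and 3 of H49, in both treatments. Whether the genotype labels of replicate 1 are exchanged was not tested, and the labels are kept as given. H49 and WT below therefore mean the arrays so labelled, and each H49 minus WT value of *BADH2* is given with and without replicate 1.

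*BADH2* was at 5.76, 7.62 and 7.50 in H49_DS (replicates 1, 2 and 3), against 6.51, 7.55 and 8.20 in H49_CT. In WT it was at 7.79, 5.69 and 5.78 in WT_DS, against 8.17, 6.10 and 6.37 in WT_CT. The arrays fell into 6 high ones, from 7.50 to 8.20, and 6 low ones, from 5.69 to 6.51, with a gap of 0.99 on the log2 scale between them, which was larger than the step between any other neighbours in the order. The high arrays were replicates 2 and 3 of H49 and replicate 1 of WT, in DS and in control alike, and the low arrays were replicate 1 of H49 and replicates 2 and 3 of WT. Neither genotype, treatment nor replicate number alone divides the arrays in this way, and no other label of the samples does. From the lowest to the highest array *BADH2* spanned 2.51 on the log2 scale, or 5.71-fold, where the median gene spanned 1.20. A span at least this wide was found in 992 genes, *BADH2* included.

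**Figure D1:**
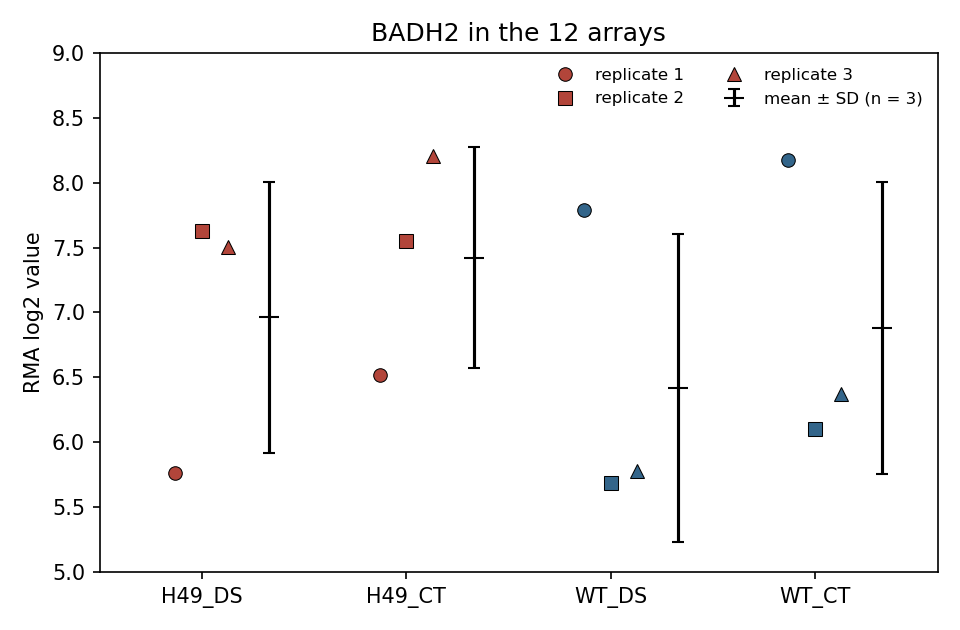
RMA log2 value of *BADH2* (vertical axis) in the 3 arrays of each group (horizontal axis), with red for H49, blue for WT, a symbol for each replicate number, and bars for the mean ± SD (n = 3). Replicate 1 lies below replicates 2 and 3 in both H49 groups and above them in both WT groups.

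The groups overlapped one another. The group values were 6.96 ± 1.04 in H49_DS and 7.42 ± 0.85 in H49_CT, and 6.42 ± 1.19 in WT_DS and 6.88 ± 1.13 in WT_CT (SD, n = 3 each). From low to high the groups stood as WT_DS, WT_CT, H49_DS and H49_CT, and no neighbours in this order differed by more than the SD of either. The residual SD of *BADH2* around its group means was 1.06, against a median of 0.28 over all genes, and only 92 of the 15140 genes, *BADH2* included, had one as large (0.608%).

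After DS *BADH2* differed from control by -0.46 on the log2 scale in H49 (standard error 0.69) and by -0.46 in WT (standard error 0.69), which is less than its spread within a group. That spread includes the step between high and low arrays, which were divided alike between DS and control in each genotype. Compared array by array within one replicate number, the difference in H49 was -0.76, 0.075 and -0.70 for replicates 1, 2 and 3. In WT it was -0.38, -0.41 and -0.59. With all arrays the difference in response between H49 and WT was 0.00 (standard error 0.97). With a replicate number left out of all groups, which keeps the numbers balanced between DS and control, the difference stayed negative, from -0.73 to -0.31 in H49 and from -0.50 to -0.40 in WT. Without replicate 1 it was -0.31 in H49 and -0.50 in WT (standard error 0.25 each). With a single array left out it turned positive in each genotype, to 0.14 in H49 without H49_DS replicate 1 and to 0.18 in WT without WT_CT replicate 1. Such an omission leaves the high and low arrays of a genotype unequally divided between DS and control.

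H49 minus WT was 0.54 for *BADH2* after DS (standard error 0.69), 0.54 without stress (standard error 0.69) and 0.54 over both treatments (standard error 0.48). These means were taken over differences of opposite sign. Within replicate 1, H49 minus WT was -2.03 after DS and -1.66 without stress on the log2 scale. Within replicate 2 it was 1.94 after DS and 1.45 without stress, and within replicate 3 it was 1.72 after DS and 1.83 without stress. In fold these differences ran from 2.74 to 4.08. Each replicate number thus gave a difference of the same sign in the 2 treatments, and for replicate 1 this sign was opposite to that of replicates 2 and 3.

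**Figure D2:**
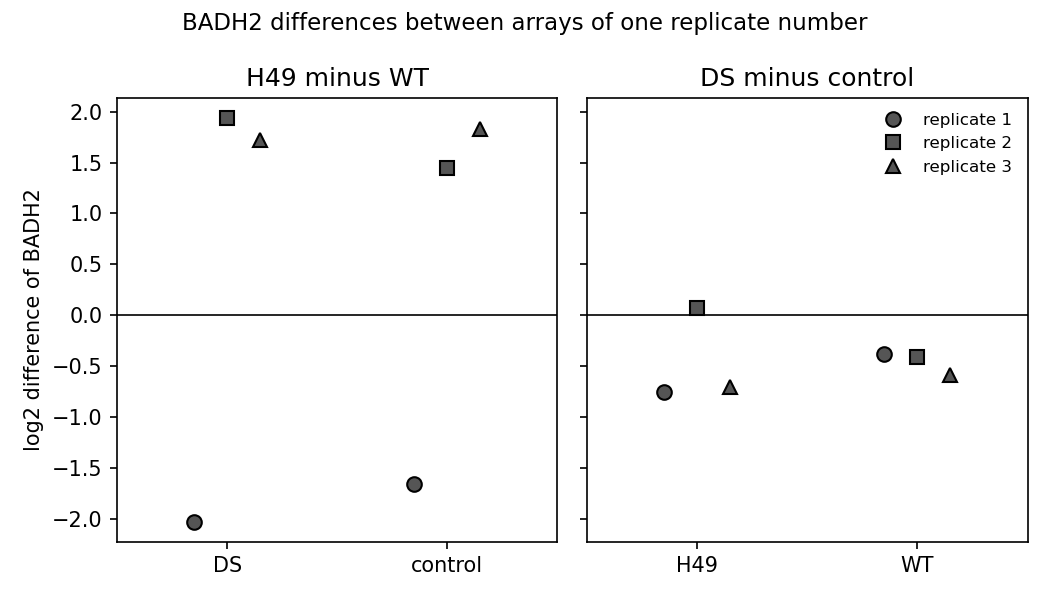
Log2 difference of *BADH2* (vertical axis) between arrays that carry the same replicate number: H49 minus WT in DS and in control (left) and DS minus control in H49 and in WT (right), with a symbol for each replicate number. H49 minus WT lies between 1.45 and 1.94 for replicates 2 and 3 and between -2.03 and -1.66 for replicate 1, while 5 of the 6 differences between DS and control lie between -0.76 and -0.38.

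Because the 4 arrays of replicate 1 carry the opposite sign, the comparison of genotypes was also computed without each replicate number in all groups at once, an alternative chosen after the data were seen. Without replicate 1, H49 minus WT for *BADH2* was 1.83 after DS and 1.64 without stress (standard error 0.25 each), and 1.74 over both treatments (standard error 0.18). Without replicate 2 the values were -0.15 after DS and 0.087 without stress, and without replicate 3 they were -0.047 after DS and -0.10 without stress. The residual SD of *BADH2* was 0.26 without replicate 1 and 1.28 and 1.29 without replicates 2 and 3. Over all genes, limma called 0 genes between H49 and WT over both treatments with all arrays. An unadjusted p under 0.05 was found in 604 of the 15140 genes, a share lower than 0.05. Without replicate 1 limma called 41 as higher and 11 as lower in H49. Without replicate 2 or replicate 3 it called 0.

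Few genes followed *BADH2* closely across the arrays. Likeness was measured by Pearson's r over the 12 arrays, as a description with no p-value. The points are the same 12 arrays for every gene and were normalized together, so genes are not independent of each other. Over the 15139 other genes r had a median of 0.04, a 5th percentile of -0.49 and a 95th percentile of 0.51. It was at least 0.9 for 8 genes and at most -0.9 for 3, and at least 0.8 for 49 and at most -0.8 for 23. The 2 genes most like *BADH2* were LOC4335309 (r = 0.95) and LOC9271480 (r = 0.95), for which the gene tables give no name. LOC4335309 was at 4.24, 6.73 and 7.03 in H49_DS, against 5.39, 7.40 and 7.69 in H49_CT. In WT it was at 6.82, 3.98 and 3.18 in WT_DS, against 7.56, 5.40 and 4.59 in WT_CT. It spanned more of the scale than *BADH2*, with 1.33 between the lowest of its 6 high arrays and the highest of the others.

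Of the genes with a recognised name, the 10 most like *BADH2* had r of 0.72 to 0.90. *OsPAE1*, which encodes an alpha subunit of the proteasome core, came first (r = 0.90). Its values were 6.36, 6.79 and 7.07 in H49_DS, against 6.43, 7.04 and 7.35 in H49_CT. In WT they were 6.73, 6.29 and 6.43 in WT_DS, against 7.04, 6.32 and 6.25 in WT_CT. The same 6 arrays were its highest, with a narrower gap of 0.29. *NAC067*, a NAC transcription factor gene (r = 0.82), was at 3.98, 6.0 and 5.59 in H49_DS, against 4.56, 5.73 and 5.04 in H49_CT. In WT it was at 5.29, 4.29 and 4.05 in WT_DS, against 5.04, 4.19 and 4.05 in WT_CT, and again the same 6 arrays were highest. *ORC1*, a subunit of the origin recognition complex of DNA replication (r = 0.82), also had its 6 highest values in these arrays, with a gap of 0.12.

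The other 7 had the pattern only in part, with overlap between the 6 arrays and the rest. They were *SCAMP1*, a secretory carrier membrane protein gene (r = 0.80), *HAP2A*, which encodes an A subunit of the nuclear factor Y (0.79), *LOL2*, a zinc finger gene (0.79), the CCCH zinc finger gene *OsC3H27* (0.78), *Ip* (0.74), the endoglucanase gene *GLU3* (0.72) and the Argonaute gene *AGO18* (0.72). The 5 named genes least like *BADH2* were *GF14C*, which encodes a 14-3-3 protein that binds phosphorylated partners (r = -0.92), the CCCH zinc finger gene *OsC3H40* (-0.83), *OsUEL-3* (-0.79), *LOGL3*, a relative of the cytokinin-activating enzyme LOG (-0.78), and the small heat shock protein gene *HSP16.9C* (-0.76).

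**Figure D3:**
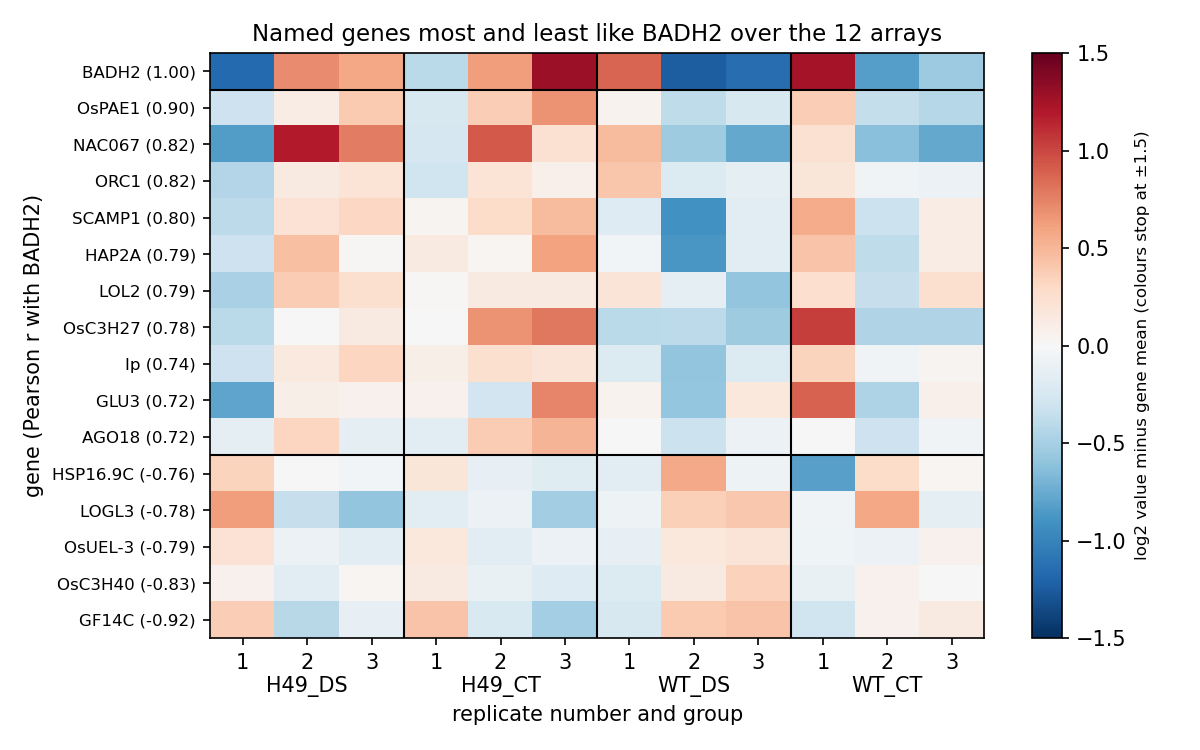
Log2 value minus the mean of the gene over all arrays (colour) for *BADH2*, the 10 named genes with the highest and the 5 with the lowest Pearson r with it (rows, r in brackets), in the 12 arrays (columns, by group and replicate number). The columns that are red for *BADH2* are replicates 2 and 3 of H49 and replicate 1 of WT, and *OsPAE1* shows them in paler red and *GF14C* in blue.

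The division of *BADH2* was shared in full by 100 of the other 15139 genes, counted after the data were seen: 67 had the same 6 arrays highest and 33 had them lowest. In 9 of the 67 the gap was at least as wide as that of *BADH2*, and in 2 of the 33. The widest gap was 1.83, in LOC4344909, which was at 2.73, 5.65 and 5.21 in H49_DS, against 2.76, 8.02 and 7.16 in H49_CT. In WT it was at 5.01, 3.18 and 2.93 in WT_DS, against 7.28, 3.03 and 3.04 in WT_CT. LOC4335497 had the reverse pattern, with 7.40, 4.42 and 2.71 in H49_DS, against 8.29, 5.98 and 2.08 in H49_CT. In WT its values were 3.87, 7.46 and 7.49 in WT_DS, against 1.65, 8.15 and 8.13 in WT_CT. The gene tables give neither gene a name. Only 4 of the 100 have a recognised name, namely *OsPAE1*, *NAC067*, *ORC1* and *GF14C*.

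Genes from the chromosome of *BADH2* made up 22 of these 100 genes (22%), against 1031 of all 15139 (6.81%), by the chromosomes of the RefSeq assembly ASM3414082v1. This share is given as a description, with no test. The 100 also held several genes of chromosome 4, such as LOC4335309 and LOC4335497, and of chromosome 6, such as LOC9270731. The shares of the other chromosomes were not computed, so whether a higher share is particular to this one is not known. The positions of the 22 genes ran from -549 to 303, in measured genes from *BADH2*. Most lay on the negative side, many of them between -400 and -249. Only *GF14C* (17), LOC4346054 (235) and LOC4346182 (303) lay on the other side. The genes next to *BADH2* did not share its pattern: of the 10 measured genes on each side, 0 divided the arrays in the same way, and their r ran from -0.59 to 0.54 with a median of -0.09, against a median of 0.04 over all genes. The ends of this range were LOC9272445 and LOC4345595, and *CCZ1*, which encodes a protein of vacuolar trafficking and was the 1 neighbour with a recognised name, had r of -0.12.

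*GF14C* was the nearest measured gene with the same division. It lies 17 measured genes away in the order of that assembly and 30 protein-coding genes away when those not measured are counted too. Its values ran opposite to those of *BADH2*: 8.50, 7.72 and 8.01 in H49_DS, against 8.56, 7.90 and 7.63 in H49_CT. In WT they were 7.89, 8.53 and 8.55 in WT_DS, against 7.84, 8.19 and 8.26 in WT_CT. All 6 arrays in which *BADH2* was high lay below all others for *GF14C*, by 0.18.

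**Figure D4:**
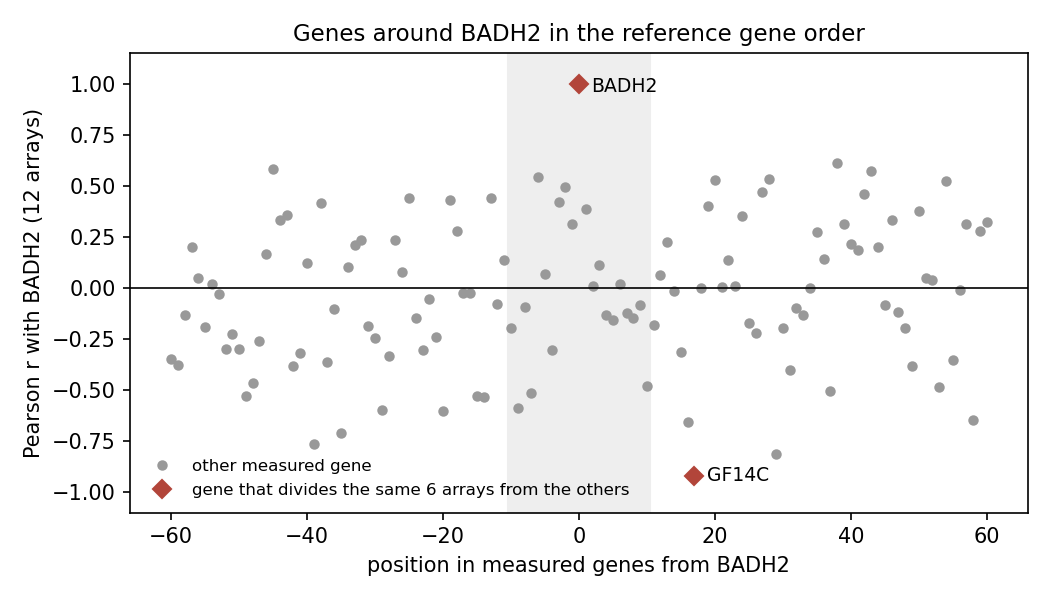
Pearson r with *BADH2* over the 12 arrays (vertical axis) for the measured genes up to 60 places from it on either side in the reference gene order (horizontal axis). The grey band holds the 10 nearest on each side, with r of -0.59 to 0.54, and red diamonds mark *BADH2* and *GF14C* (r = -0.92), the genes in this window that divide the same 6 arrays from the others.

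The substrate of *BADH2* comes from polyamines, and its neighbours in metabolism are the routes to GABA and proline. Of 13 genes of these routes in the reference gene table, 7 were measured, meaning that a named probe set read them alone. Whether unnamed or shared probe sets read the others is not known. *BADH1*, the close copy of *BADH2*, was among the 6 not measured here, as were the genes for P5C synthetase (*P5CS1* and *P5CS2*), the first enzyme of proline synthesis, *PAO6*, *DAO* and *OSL2*. After DS, 1 of the 7 rose and 1 fell in H49, and the same genes in WT, where a call needed a difference of 2-fold or more with limma's adjusted p no higher than 0.05. Over all genes 14.6% were called in H49 (5.26% higher and 9.3% lower after DS) and 13.4% in WT (4.93% higher and 8.47% lower). The median log2 difference of the 7 genes was -0.21 in H49 and 0.14 in WT, against -0.06 over all genes in both.

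*OAT*, which encodes ornithine aminotransferase and links arginine breakdown to proline, was the gene that rose. It was at 9.49, 9.34 and 9.19 in H49_DS, against 7.66, 7.38 and 7.70 in H49_CT, and at 8.60, 9.19 and 9.37 in WT_DS, against 7.93, 7.29 and 7.48 in WT_CT. Every DS array lay above every control array. The log2 difference was 1.76 in H49 with a standard error of 0.23 and a limma adjusted p of 0.00014. It was 1.49 in WT with the same standard error and a limma adjusted p of 0.00051.

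*spdSyn1*, which encodes spermidine synthase, the enzyme that turns putrescine into spermidine, was the gene that fell. It was at 6.84, 6.95 and 7.27 in H49_DS, against 8.35, 8.27 and 8.56 in H49_CT, and at 6.96, 6.85 and 7.26 in WT_DS, against 8.39, 8.27 and 8.55 in WT_CT. The log2 difference was -1.38 in both genotypes, with a standard error of 0.18 and limma adjusted p-values of 0.00017 in H49 and 0.0002 in WT. Its values in H49 and WT overlapped in both treatments, and r with *BADH2* was 0.28.

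The other 5 were below the fold of 2. *ALDH5F1*, which encodes succinic semialdehyde dehydrogenase of the GABA route, had a log2 difference of -0.74 in H49 (adjusted p = 0.012 from limma) and of -0.98 in WT (adjusted p = 0.0023 from limma). *ADC1*, which encodes arginine decarboxylase at the start of polyamine synthesis, had 0.40 in H49 (adjusted p = 0.23 from limma) and 0.74 in WT (adjusted p = 0.031 from limma). *GABA-T*, a GABA transaminase gene, had 0.54 in H49 (adjusted p = 0.037 from limma) and 0.14 in WT (adjusted p = 0.6 from limma), at values of 1.60 to 2.61, below the median of every array. *ADC2*, the second arginine decarboxylase gene, was at 2.48 to 3.77, also below the median of every array. *AdoMetDC* encodes the enzyme that supplies the aminopropyl groups of spermidine. Both genes had limma adjusted p from 0.43 to 0.65.

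**Figure D5:**
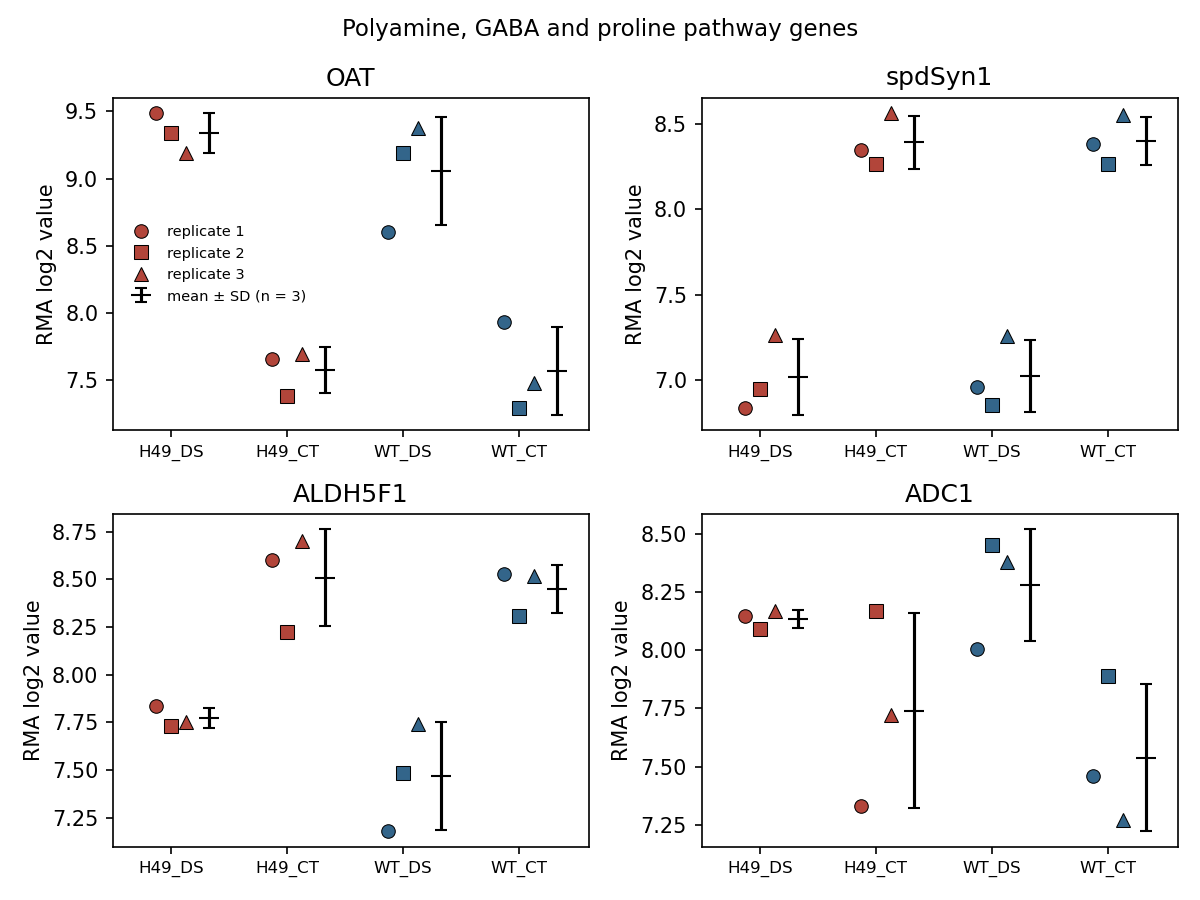
RMA log2 value (vertical axes) of *OAT*, *spdSyn1*, *ALDH5F1* and *ADC1* in the 3 arrays of each group (horizontal axes), with red for H49, blue for WT, a symbol for each replicate number and bars for the mean ± SD (n = 3). DS and control arrays are apart for *OAT*, *spdSyn1* and *ALDH5F1*. H49 and WT overlap in each treatment, and none of these genes divides the high arrays of *BADH2* from the low ones.

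Between H49 and WT, 0 of the 7 genes were called by limma after DS, without stress or over both treatments, and 0 by the methods' t-test after DS or without stress. None had an unadjusted p under 0.05 in limma, and limma called 0% of all 15140 genes in these comparisons. The methods' t-test without adjustment called 7 of all genes as higher and 4 as lower in H49 after DS, and 3 as higher and 3 as lower without stress, and 0 after Benjamini-Hochberg adjustment. The log2 differences of the 7 genes over both treatments ran from -0.02 to 0.25. A comparison of H49 with WT cannot show the division of arrays, since replicate 1 runs against replicates 2 and 3 in it. *BADH2* itself stood at 0.54 there (standard error 0.48). None of the 7 measured genes was among the 100 that shared the division, and their r with *BADH2* ran from -0.27 to 0.28.

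The arrays hold whole seedlings, in which fewer cells of a type and less RNA per cell cannot be told apart. Of the marker names set for leaf mesophyll, 2 of 9 were measured, and of those for root, 3 of 10. The light-harvesting genes *CAB2R* and *CAB1R* had r of 0.47 and 0.04 with *BADH2*. The root genes *Lsi2*, a silicon transporter, *NAS1*, nicotianamine synthase, and *osysl15*, an iron transporter, had r of 0.33, -0.56 and -0.57. *NAS1* ran from 3.03 to 4.97 in H49_DS and from 3.07 to 3.97 in H49_CT, and from 4.35 to 5.40 in WT_DS and from 3.63 to 6.63 in WT_CT. None of these 5 genes divided the same 6 arrays, and the part of tissue make-up in the values of *BADH2* was not tested.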

How the data were processed

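The data were 12 one-colour Affymetrix arrays of rice seedlings. The authors prepared them by RMA in Genespring, and the deposited values are log2 values, 1 per probe set, used without further scaling. The labels and the paper name different labelling kits. The genome build of the probe sets is not given in the sources used here. Of 54922 probe sets, 15829 carried 1 gene in the table of probe genes, 440 several, and 38653 have no name here. This left 15140 genes. For the 627 with more than 1 probe set the brightest on average was kept, and *BADH2* had 1. Names, chromosomes and gene order came from the RefSeq gene table, and since most symbols there are numbers, a name among the synonyms counted as recognised (1741 genes). No sequence table was given, so no sequence is shown.

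The linear model of limma 3.58.1 (R 4.3.3) had a mean for each of the 4 groups, and p-values were adjusted over all genes by the Benjamini-Hochberg method. Calls needed an adjusted p no higher than 0.05 and a 2-fold difference. Python 3.11.15 with pandas 2.3.3, numpy 2.4.6 and matplotlib 3.10.9 served for correlations and plots. The fit was tested on simulated data. The number of arrays limits the precision.

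*BADH2*, the gene lists and the tests were chosen with earlier results of these data known. Genes were named by a rule: *BADH2*, *OsHOX24*, the pathway genes, the 10 named genes with the highest and the 5 with the lowest r, and the 10 measured genes on each side of *BADH2*. Unnamed genes with high r or a wide gap were chosen after their values were seen. The genes *RF2a*, *RF2b* and *Rf2*, caught by the pattern for aldehyde dehydrogenases, are not of that family and were left out. Alternatives covered the scaling, the probe sets of a gene, dim genes, the fold minimum, the test, a replicate block and leaving out arrays.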

Additional observations from a re-analysis of the deposited data

How the results depend on the processing

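Leaving out 1 array at a time, or 1 replicate number in all groups, *BADH2* after DS minus control ran from -0.91 to 0.14 in H49 and from -1.15 to 0.18 in WT. It stayed negative in both when whole replicate numbers were left out (-0.73 to -0.31 in H49, -0.50 to -0.40 in WT). H49 minus WT ran from -0.15 to 1.83 after DS, from -0.10 to 1.64 without stress and from -0.075 to 1.74 over both treatments, and the difference in response from -0.65 to 0.69. The highest value of H49 minus WT in each case was that without replicate 1 (1.83, 1.64 and 1.74). Centring each array on its median gene moved the median difference after DS of all genes from -0.06 to 0.16 in H49 and from -0.06 to 0.14 in WT, and *BADH2* then differed after DS by -0.24 in H49 and -0.25 in WT. With centred arrays 92 genes divided the same 6 arrays, 23 of them on the chromosome of *BADH2*, and with quantile normalization 101 and 21. A replicate block could not change the *BADH2* differences, since each group holds every replicate number once, and could change only their standard errors. For H49 minus WT over both treatments (0.54) the standard error was 0.51 with the block. The calls of the pathway genes stayed the same with it. Arrays of one number deviated together in part: deviations from the group means correlated above 0.1 in all 12 pairs of replicates 2 and 3 and in 1 of 6 pairs of replicate 1, with r from -0.20 to 0.39 over the 18 pairs, and 10 of 12 arrays correlated best with their own number, a hint from the data and not from the design. Since not every pair passed, the fit without the block was kept.

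Of the pathway genes 2 were called after DS in each genotype. With no fold minimum it was 4 in H49 and 4 in WT, and by the methods' t-test after Benjamini-Hochberg adjustment it was 1 in WT. With arrays left out it was 2 in H49 and 2 to 3 in WT, and 0 throughout between the genotypes. The differences after DS of *ADC1* in WT and of *ALDH5F1* and *GABA-T* in H49, all below the fold of 2, no longer passed the adjusted p under several such omissions, and *GABA-T* also with quantile normalization (adjusted p = 0.1 from limma). Of the 10 named genes most like *BADH2*, 5 were also among the 10 by Spearman's correlation, 3 by the deviations from the group means and 3 with the replicate block added to these, and 3 to 8 with arrays or replicate numbers left out. For the other alternatives listed for these results the counts stayed within 1.5 times. The values carry no detection call, so how far low ones such as those of *GABA-T* and *ADC2* lie above background is unknown.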

Other observations

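The stress response of the arrays and the division by *BADH2* ran across each other. *OsHOX24*, which separated every DS array from every control array, had r of -0.26 with *BADH2*, and *OAT* and *spdSyn1*, which did the same, had r of -0.26 and 0.28. These values follow from the balance of the division and are no separate support for it. Each treatment holds as many high as low arrays, so a gene that mainly separates DS from control has a small r. The division was in turn present within each treatment: among the 6 DS arrays *BADH2* was at 7.62 and 7.50 in H49 replicates 2 and 3 and 7.79 in WT replicate 1, against 5.76 in H49 replicate 1 and 5.69 and 5.78 in WT replicates 2 and 3.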
